A study of Mus musculus with 6 samples.

Results

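The 9 genes described here encode the transcription regulators that set oxidative metabolism in muscle. They were chosen by name, and all 9 were found among the 11768 genes of the deposited table. They are the coactivators Ppargc1a and Ppargc1b, the fatty acid sensing receptors Ppara and Ppard, the estrogen-related receptors Esrra and Esrrg, the nuclear respiratory factors Nrf1 and Gabpa, and Perm1, a striated muscle regulator that acts with PGC-1 and the estrogen-related receptors. Transcripts were measured by ribosome-depleted stranded total RNA sequencing of frozen quadriceps muscle from mice on normal chow. The deposited table has 3 columns labelled Control, from mice with the genotype Control f/f, and 3 labelled mDrp1HET, from the model Drp1-KD, which the series describes as heterozygous for a muscle-specific knockout of Drp1. The labels give no age, their titles carry the letters mck without spelling out a Cre driver, and they do not say that each library number is a separate animal, so the tests measure the spread between libraries.

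PGC-1 proteins do not bind DNA themselves. They dock on nuclear receptors and on other factors and recruit the machinery that opens chromatin and starts transcription. In muscle they act on estrogen-related receptors and nuclear respiratory factors to raise genes of mitochondria, and on PPAR receptors to raise genes of fatty acid uptake and oxidation. Endurance exercise raises Ppargc1a, and muscle made to carry more of it gains oxidative fibre features.

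Control replicate 1 and mDrp1HET replicate 3 hold the same library. The first had exactly 2 times the reads of the second in 96.3% of genes, and their median absolute difference was 0.00037 log2 CPM. The labels do not tell which group this library came from, and below it is called the shared library. The labelled comparison keeps both copies. Values are log2 CPM, the log2 of reads per gene scaled to a common library total. The 4-library comparison leaves both copies out and sets Control replicates 2 and 3 against mDrp1HET replicates 1 and 2. Reads assigned to the listed genes were 28664508 and 25019293 in these Control libraries and 15782298 and 10394761 in the mDrp1HET libraries. Dnm1l, the gene for Drp1, gave no detectable fall under the mDrp1HET label (4-library log2 fold change 0.11, 95% interval -0.40 to 0.62). Its level was 6.95 and 6.87 log2 CPM in Control, 6.69 in the shared library, and 7.30 and 6.73 in mDrp1HET. Directions below therefore refer to the labels. The 6 myofibre markers, Ckm and Acta1 among them, summed to 239260 and 282004 CPM in Control, 256718 in the shared library, and 222135 and 212003 in mDrp1HET. The tissue thus matched its label. The sum was lower in both mDrp1HET libraries, but its most abundant members were Ttn and Myh4. Of the 6 markers 2 lay lower and 1 higher without overlap of the groups, against 11.3% and 38.6% of all genes. The groups overlapped for Ckm.

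In RefSeq (GRCm38.p6) Ppargc1a lies on chromosome 5 (51454249 to 52115853). Ppara lies on chromosome 15 (85734910 to 85806851) and Ppard on chromosome 17 (28232754 to 28301469), while Esrra is on chromosome 19 (6910977 to 6922048) and Esrrg on chromosome 1 (187608510 to 188214885). Nrf1 is on chromosome 6 (30047985 to 30153458), Gabpa on chromosome 16 (84834891 to 84863783) and Perm1 on chromosome 4 (156203262 to 156221307).

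RefSeq gave promoters in the same build for 8 of the 9 genes, with 12 start sites in all. The 4 sequences below are shown because each holds letters that a factor among these regulators can bind. They are the 250 bases before a start site, 5′ to 3′ in the direction of the gene, with the matching letters in capitals.
Ppara, chr15:85735526-85735775, plus strand: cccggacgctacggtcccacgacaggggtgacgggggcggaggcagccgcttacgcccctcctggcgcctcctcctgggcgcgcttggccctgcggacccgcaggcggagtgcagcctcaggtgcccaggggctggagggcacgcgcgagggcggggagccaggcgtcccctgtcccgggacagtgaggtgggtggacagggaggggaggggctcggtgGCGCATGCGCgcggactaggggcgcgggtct
Esrra, chr19:6921809-6922058, minus strand: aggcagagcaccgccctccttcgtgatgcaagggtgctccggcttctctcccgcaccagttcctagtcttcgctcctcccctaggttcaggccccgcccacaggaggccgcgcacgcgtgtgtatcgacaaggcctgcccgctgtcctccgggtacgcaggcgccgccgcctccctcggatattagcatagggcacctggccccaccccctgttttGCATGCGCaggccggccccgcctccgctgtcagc
Gabpa, chr16:84834874-84835123, plus strand: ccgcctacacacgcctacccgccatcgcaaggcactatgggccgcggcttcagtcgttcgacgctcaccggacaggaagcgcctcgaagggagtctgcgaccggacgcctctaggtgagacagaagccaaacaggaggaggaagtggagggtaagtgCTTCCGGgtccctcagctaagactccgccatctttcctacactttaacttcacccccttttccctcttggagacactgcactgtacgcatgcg
Perm1, chr4:156215677-156215926, plus strand: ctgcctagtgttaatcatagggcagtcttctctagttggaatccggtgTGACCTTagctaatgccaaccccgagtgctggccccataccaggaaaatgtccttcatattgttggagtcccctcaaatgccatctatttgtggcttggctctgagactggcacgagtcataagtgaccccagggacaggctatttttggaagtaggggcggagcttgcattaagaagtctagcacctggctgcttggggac
In Ppara the capitals are the NRF1 letters GCATGCGC read on both strands, where the matches overlap, and in Esrra they are the same letters on the gene's strand. These letters were present before 2.26% of 32851 mouse start sites searched on both strands. In Gabpa they are the ETS letters CCGGAAG, which GABP proteins can bind, on the opposite strand (6.91% of start sites). In Perm1 they are the receptor core AAGGTCA on the opposite strand (4.08% of start sites). The longer estrogen-related receptor letters TCAAGGTCA (0.387% of start sites) and a PPAR direct repeat (0.0335%) were found before 0 of the 12 start sites. A match describes the letters alone.

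Per kilobase of transcript, Perm1 had the highest mean level of the 9 transcripts, and Esrrg, Ppard and Ppargc1b the lowest. Over the 5 separate libraries, with the longest transcript as the length, the mean level was 4.58 ± 0.69 log2 CPM per kilobase for Perm1 and 3.95 ± 0.35 for Esrra (SD, n = 5). Gabpa stood at 3.82 ± 0.20, which differs from Esrra by less than either spread. Ppargc1a, at 2.79 ± 0.49, and Nrf1, at 2.23 ± 0.16, held the middle of the order. Ppara followed at 1.59 ± 0.86. The 3 lowest, Esrrg at 0.83 ± 0.90, Ppard at 0.82 ± 0.60 and Ppargc1b at 0.78 ± 0.54, could not be told apart. The alpha forms of both the coactivators and the estrogen-related receptors were thus the more abundant members of their pairs. With the shortest annotated transcript as the length, Ppargc1a stood at 4.19, Ppard at 3.80 and Nrf1 at 3.16, so the places of these 3 depend on the length used. The shortest Ppard transcript has only 417 bases, against 3277 for the longest, and whether the muscle makes it was not tested.

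**Figure D1:**
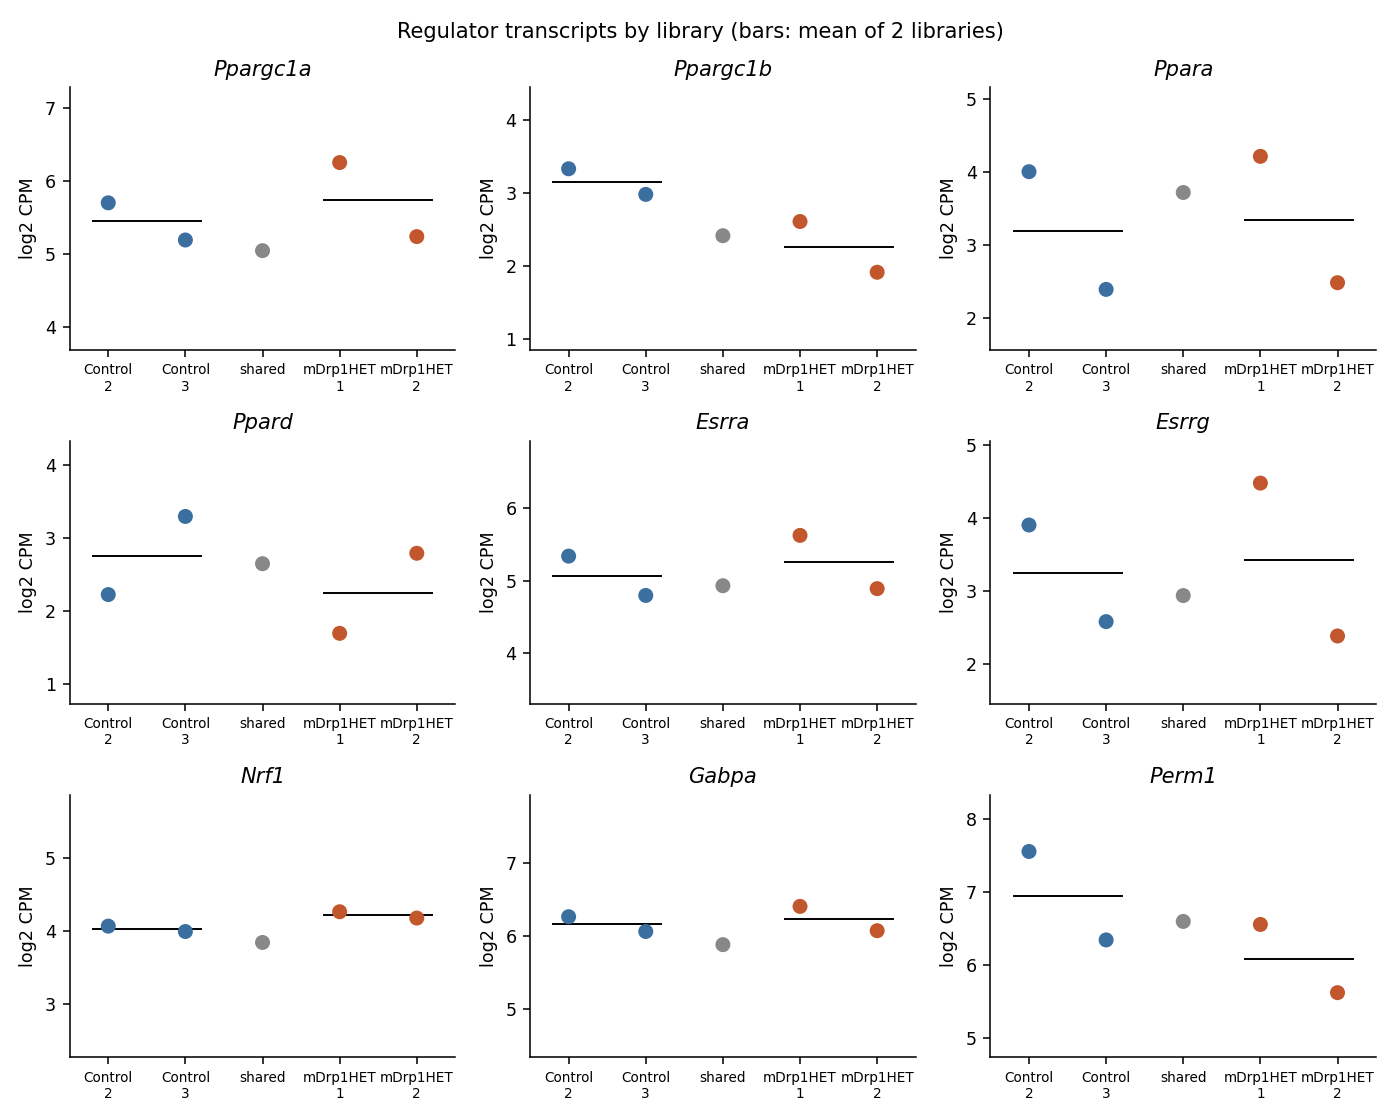
Level of each of the 9 regulator transcripts (log2 CPM, y axis) in the 5 separate libraries (x axis). Points are libraries, bars are means of 2 libraries of a group, every panel spans the same range on the log2 scale, and the shared library belongs to neither group. The Control and mDrp1HET points do not overlap for Ppargc1b and Nrf1, and for Ppara and Esrrg the points within each group lie far apart.

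None of the 9 regulators passed the threshold (limma, Benjamini-Hochberg adjusted p under 0.05 over all genes) between mDrp1HET and Control. In the labelled comparison 0 of 11768 genes passed (0%). Limma gave 459 genes an unadjusted p under 0.05, and 0 of these were regulators, while limma voom on recovered reads also called 0 genes. In the 4-library comparison 22 of 11768 genes passed (0.187%), of which 0.144% of all genes lay higher and 0.0425% lower in mDrp1HET, and 0 were regulators. Groups did not overlap in 2 of the 9, Ppargc1b and Nrf1, against 49.9% of all genes. At an unadjusted p under 0.05 there were 2 of the 9, Ppargc1b and Perm1, both lower in mDrp1HET, where all genes had 3.26% lower and 13.3% higher. Over all genes the 4-library log2 fold change had a median of 0.20, which median centring moved to 0.04, so each regulator is also given relative to that median. Relative to it Ppargc1a stood at 0.098, Ppara at -0.051, Ppard at -0.72, Esrra at -0.013, Esrrg at -0.013, Nrf1 at -0.011 and Gabpa at -0.13, so Ppara, both estrogen-related receptors, Nrf1 and Gabpa turn from above 0 to below it. Because the shared library stands on both sides, labelled fold changes lie nearer to 0 by construction.

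Ppargc1b, the PGC-1 beta coactivator, had the lowest log2 fold change of the 9. Control replicate 2 held 3.33 and Control replicate 3 held 2.98 log2 CPM, the shared library held 2.41, and mDrp1HET replicates 1 and 2 held 2.61 and 1.91. The groups did not overlap, and the shared library lay between the mDrp1HET values. Between the 4 libraries the log2 fold change came to -0.90 with an SE of 0.34 (95% interval -1.64 to -0.15, limma adjusted p = 0.243), a level 0.538 times that of Control. Relative to all genes the change was -1.10, and 1.34% of genes had a lower value. Without mDrp1HET replicate 2 it was -0.55 (adjusted p = 0.361), and without the others in turn between -1.24 and -0.72. In the labelled comparison it was -0.60 (SE 0.30, adjusted p = 0.753). The authors' deposited table gives Ppargc1b a p of 0.152 and Perm1 a p of 0.304, the lowest of the 9. The 4-library values of Ppargc1b rest on 288 and 197 reads in Control and on 96 and 39 reads in mDrp1HET libraries. Counting alone gives an SD of 0.23 log2 in the shallowest of these libraries.

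Ppargc1a, the PGC-1 alpha coactivator, showed no detectable difference. Its level was 5.70 and 5.19 log2 CPM in Control, 5.04 in the shared library, and 6.25 and 5.23 in mDrp1HET. Only mDrp1HET replicate 1 stood above both Control libraries, so the groups overlapped. Its mean difference between the groups was 0.30 (SE 0.32, 95% interval -0.40 to 0.998, adjusted p = 0.662), and its sign turned without mDrp1HET replicate 1 (-0.21). Gene-level values do not separate the isoforms of Ppargc1a, some of which have roles of their own.

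The difference between the coactivators within a library does not depend on how libraries are scaled. Ppargc1a exceeded Ppargc1b by 2.37 and 2.21 log2 CPM in Control, by 2.63 in the shared library, and by 3.64 and 3.32 in mDrp1HET. The shared library lay between the groups, and the groups did not overlap. The mean difference was 2.29 in Control and 3.48 in mDrp1HET, a change of 1.20, and without any 1 of the 4 libraries it was between 1.04 and 1.35. This pair was singled out after its values were seen, from 36 pairs of regulators, of which 10 did not overlap between groups. All 10 held Ppargc1b or Perm1, and pairs that share a gene are not independent. The share among pairs of all genes was not counted, so these 10 pairs are no result about the regulators. With 2 libraries against 2 an exact permutation test cannot give a p under 0.333, so no test is given. The transcripts differ in GC content, 41.7% for Ppargc1a and 57.8% for Ppargc1b, and removal of each library's trend on GC content brought the change to 0.76.

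**Figure D2:**
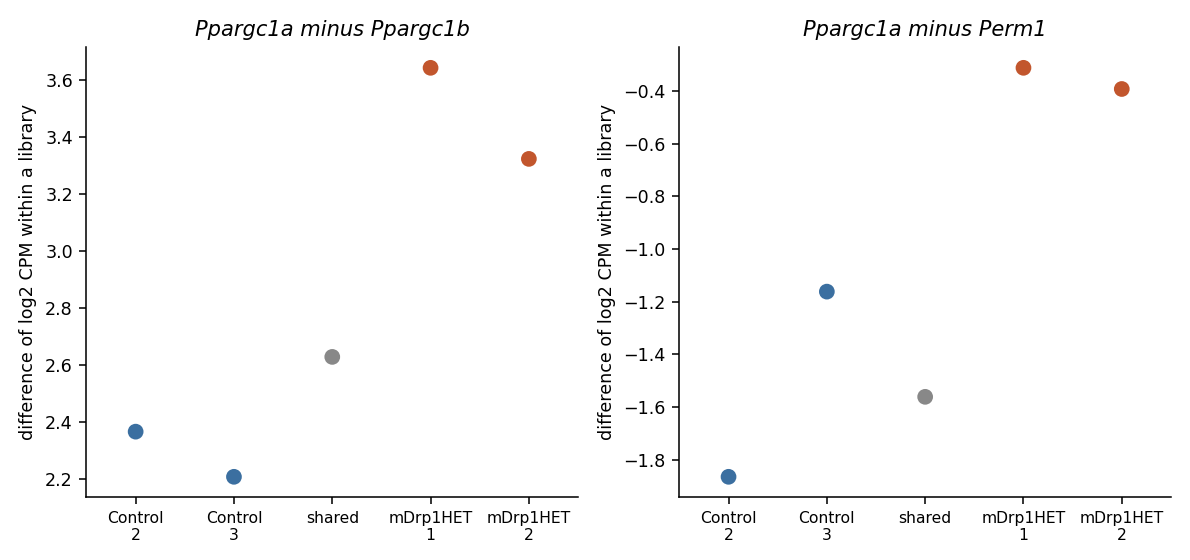
Difference of log2 CPM within a library (y axis) between Ppargc1a and Ppargc1b (left) and between Ppargc1a and Perm1 (right), in each of the 5 separate libraries (x axis, 1 point per library). Both mDrp1HET points lie above both Control points in both panels. The shared library lies between the groups on the left and within the Control range on the right.

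Perm1, which muscle contraction and PGC-1 are known to raise, had the other low fold change. It stood at 7.56 and 6.35 log2 CPM in Control, at 6.60 in the shared library, and at 6.56 and 5.63 in mDrp1HET. The groups overlapped, because mDrp1HET replicate 1 lay above Control replicate 3. Its 4-library difference was -0.86 (SE 0.38, 95% interval -1.69 to -0.03, adjusted p = 0.285), -1.06 relative to all genes, and 1.51% of genes had a lower value. The interval draws on the spread of other genes and is narrower than the within-group SD of Perm1 alone, 0.77, would give. Without Control replicate 3 the difference was -1.47, and without mDrp1HET replicate 1 it was -1.33. Perm1 passed the threshold in both of these fits, but so did many more genes than in the main fit. Without Control replicate 2 the difference was -0.26, and without mDrp1HET replicate 2 it was -0.39. Each of these 4 fits leaves 1 group with a single library, which is assumed to vary like the others, so passing there is not read as a result. Ppargc1a exceeded Perm1 by -1.86 and -1.16 in Control and by -0.31 and -0.39 in mDrp1HET, with the shared library at -1.56.

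The PPAR receptors spread widely within groups and stood in opposite orders over the libraries. Ppara, the receptor that drives fatty acid oxidation genes in fasting, stood at 4.01 and 2.39 log2 CPM in Control, at 3.72 in the shared library, and at 4.22 and 2.48 in mDrp1HET. Each group held a high and a low library, a gap of 1.61 in Control and of 1.73 in mDrp1HET. The mean difference between the groups was only 0.15 (95% interval -1.09 to 1.39, adjusted p = 0.913), and without Control replicate 3 or mDrp1HET replicate 1 it was -0.66 or -0.72. Ppard, the PPAR form linked to endurance in muscle, stood at 2.23 and 3.30 in Control, at 2.65 in the shared library, and at 1.70 and 2.79 in mDrp1HET. It was low in the libraries where Ppara was high, in both groups. Its 4-library log2 fold change was -0.52 (95% interval -1.49 to 0.45, adjusted p = 0.576), and without Control replicate 3 or mDrp1HET replicate 1 it was 0.017 or 0.031.

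Within each group the estrogen-related receptors, like Ppara, were higher in Control replicate 2 and in mDrp1HET replicate 1. Esrrg, which is most abundant in oxidative fibres, stood at 3.90 and 2.58 log2 CPM in Control, at 2.93 in the shared library, and at 4.48 and 2.38 in mDrp1HET. Its gap within mDrp1HET, 2.10, was the largest of the 9 regulators. The difference between group means was 0.19 (95% interval -1.09 to 1.47, adjusted p = 0.895), and without Control replicate 3 or mDrp1HET replicate 1 it was -0.47 or -0.86. Esrra stood at 5.34 and 4.80 in Control, at 4.93 in the shared library, and at 5.62 and 4.89 in mDrp1HET, with a log2 fold change of 0.19 (95% interval -0.45 to 0.82, adjusted p = 0.774). Its groups overlapped, with mDrp1HET replicate 1 the highest and Control replicate 3 the lowest, and without these libraries in turn the change was -0.18 or -0.081.

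The nuclear respiratory factors were the steadiest of the 9. Nrf1, which drives nuclear genes of the respiratory chain, stood at 4.07 and 3.99 log2 CPM in Control, at 3.84 in the shared library, and at 4.26 and 4.18 in mDrp1HET. Its groups did not overlap, as was so for 38.6% of all genes in the higher direction and 11.3% in the lower, and the shared library lay below both. Its log2 fold change was 0.19 (95% interval -0.34 to 0.73, adjusted p = 0.721), close to the 0.20 of all genes. Gabpa, the DNA-binding subunit of GABP, stood at 6.27 and 6.06 in Control, at 5.88 in the shared library, and at 6.41 and 6.07 in mDrp1HET, a log2 fold change of 0.08 (95% interval -0.41 to 0.56, adjusted p = 0.886). Its sign turned with median centring (-0.091), and it is therefore given no direction.

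**Figure D3:**
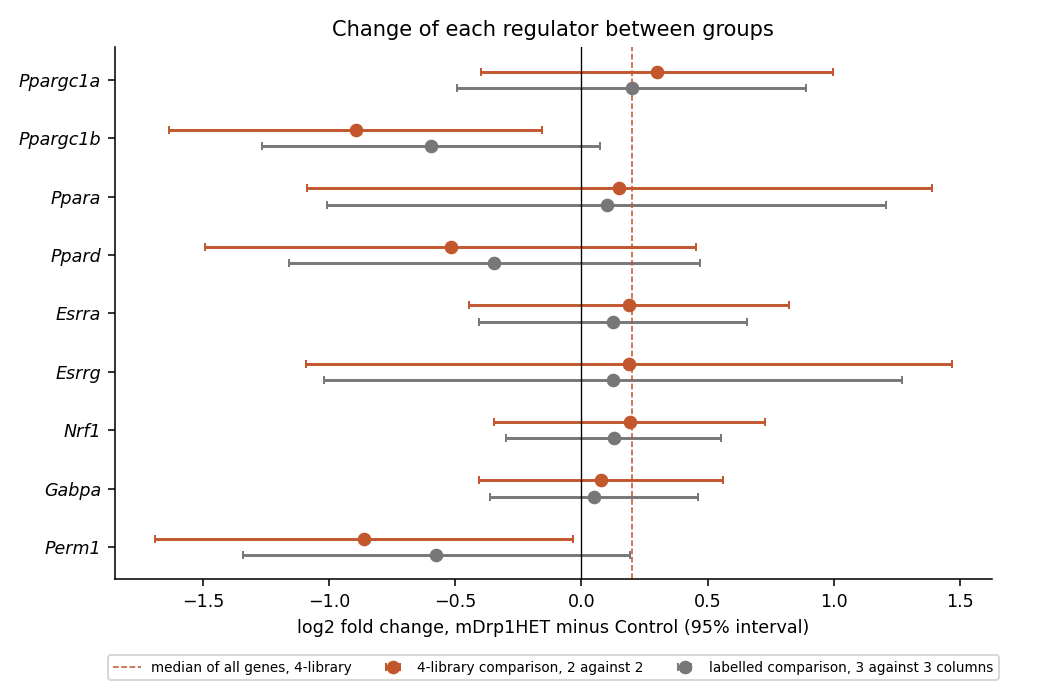
Log2 fold change of each regulator, mDrp1HET minus Control (x axis), with 95% limma intervals, in the 4-library comparison (2 libraries against 2) and in the labelled comparison (3 columns against 3). The dashed line marks 0.20, the all-gene median of the 4-library fit. The intervals of Ppargc1b and Perm1 lie below 0 in the 4-library comparison, and the labelled intervals all include 0.

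For most of these transcripts the libraries of a group lay further apart than those of most genes. The pooled SD within the groups of the 4-library comparison was 1.24 log2 for Esrrg, above that of 99.3% of all genes, and 1.18 for Ppara, above that of 99.1%. For Ppard and Perm1 it was 0.77, above that of 97.3% of genes in both cases. Ppargc1a (0.57) lay above 92.9% of genes, Esrra (0.45) above 85.6% and Ppargc1b (0.39) above 78.7%. Gabpa (0.20) lay above 37.4% and Nrf1 (0.057) above 3.93%. Counting error was small beside these gaps, since the fewest reads behind an Esrrg or Ppara value were 54 and 58, a counting SD of 0.20 and 0.19 log2.

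In 8 of the 9 regulators the level was higher in Control replicate 2 than in Control replicate 3 and higher in mDrp1HET replicate 1 than in mDrp1HET replicate 2, as in 56.1% of all genes. Ppard was lower in both pairs, as were 9.68% of all genes. The same order was found in 22 of 24 measured PPAR target genes, in 15 of 15 target genes of estrogen-related receptors and PGC-1, and in 11 of 12 target genes of NRF1 and GABP. The target lists share Cycs and Acadm and are not independent. Markers of some other cell types stood in this order too, in 6 of 6 endothelial, 5 of 5 smooth muscle and pericyte, 4 of 4 Schwann cell and 5 of 6 macrophage markers. Other markers did so less often, in 4 of 6 adipocyte, 4 of 6 myofibre, 3 of 7 fibro-adipogenic progenitor and 1 of 5 tendon markers. The order held for 8 of 21 coregulators, 5 of 17 signalling genes and 4 of 10 fast fibre genes. Ldhb, a lactate dehydrogenase subunit that PGC-1 alpha raises, was named after its values were seen. It stood at 7.10 and 4.21 log2 CPM in Control, at 4.27 in the shared library, and at 6.87 and 3.62 in mDrp1HET, so it was high in the same pair of libraries as Esrrg.

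Genes of slow and oxidative fibres stood in the same order, in 8 of 8 measured members. Myh7, the slow myosin heavy chain, stood at 3.56 and 1.31 log2 CPM in Control, at 1.85 in the shared library, and at 7.34 and 2.18 in mDrp1HET. Tnnt1, the slow troponin T, stood at 3.19 and 0.22 in Control, at 0.20 in the shared library, and at 6.81 and 1.76 in mDrp1HET. Both were far higher in mDrp1HET replicate 1 than in any other library. The slow and oxidative list summed to 6513 and 3408 CPM in Control, 4100 in the shared library, and 5722 and 1767 in mDrp1HET. Its most abundant members were the IIA myosin Myh2 and myoglobin, Mb, so the sum does not follow Myh7 and Tnnt1. Fast fibre genes summed to 157961 and 163621 CPM in Control, 171889 in the shared library, and 124750 and 124935 in mDrp1HET. This fast sum was lower in both mDrp1HET libraries. Its most abundant member, Myh4, stood at 16.27 and 16.44 log2 CPM in Control and at 15.31 and 15.62 in mDrp1HET. Of the 10 fast fibre genes 4 lay lower and 3 higher without overlap of the groups, against 11.3% and 38.6% of all genes. The part of this lower fast sum in the low Perm1 and Ppargc1b values was not tested. The slow list had 0 calls in the 4-library comparison, with log2 fold changes of 2.32 for Myh7 (SE 1.21), 2.58 for Tnnt1 (SE 1.26), 1.25 for the slow tropomyosin gene Tpm3 (SE 0.49) and -0.996 for the IIA myosin Myh2 (SE 0.28). Its median relative to all genes, 0.81, turned to -0.55 without mDrp1HET replicate 1. Among fast fibre genes, also with 0 calls, the IIX and IIB myosins Myh1 and Myh4 had -1.04 (SE 0.37) and -0.89 (SE 0.35), and the calcium buffer Pvalb and the light chain Mylpf 0.63 (SE 0.25) and 0.56 (SE 0.25). In a piece of muscle, fewer fibres of a type and less RNA per fibre cannot be told apart. The part of fibre makeup in the levels of Esrrg, Ppara and Ppargc1a was not tested. mDrp1HET replicate 1 also had the lowest share of the ribosomal RNA precursor Rn45s, 1.59% of reads against 5.18% to 8.30% elsewhere. The small nuclear RNA Rn7sk took 1.39% and 1.90% of reads in mDrp1HET, 0.584% and 0.419% in Control and 0.198% in the shared library, so its share separated the groups. mDrp1HET replicate 1 held the highest value of 52.9% of all genes, as of 6 of the 9 regulators.

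**Figure D4:**
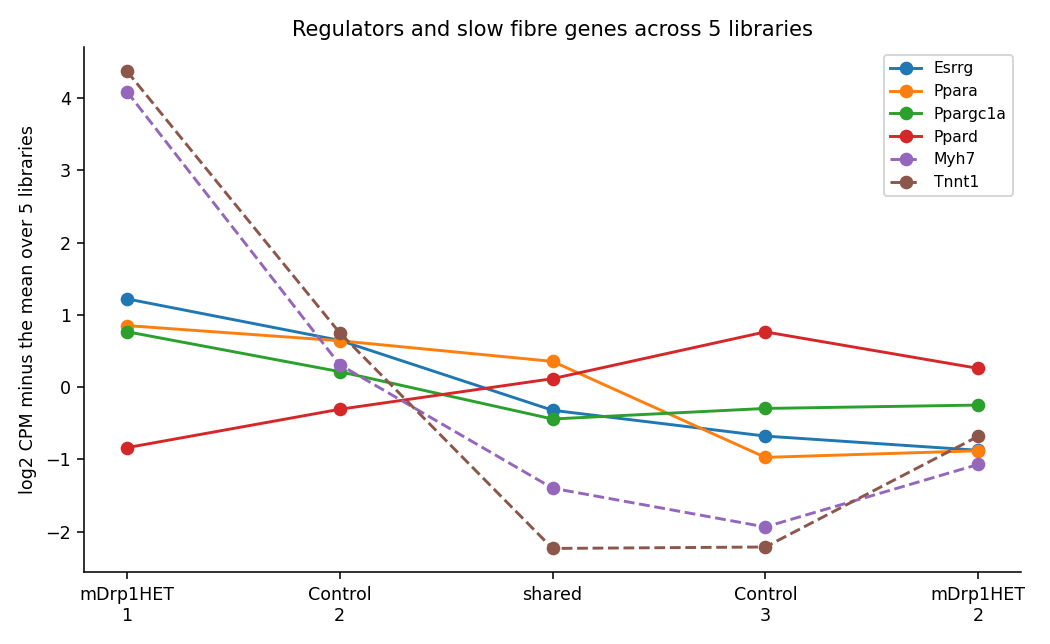
Level of 4 regulators (solid lines) and of the slow fibre genes Myh7 and Tnnt1 (dashed lines) in the 5 separate libraries, as log2 CPM minus the gene's own mean over the 5 libraries (y axis). Libraries on the x axis are placed by their Esrrg level, and lines only join the points of a gene. Esrrg, Ppara, Ppargc1a, Myh7 and Tnnt1 are highest in mDrp1HET replicate 1, where Ppard is lowest.

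Partners and controls of these regulators gave 0 calls in either comparison. Of 22 listed coregulators and dimer partners 21 were measured, and their median 4-library log2 fold change was 0.062, against 0.20 for all genes. In this list 6 members lay higher and 4 lower in mDrp1HET without overlap of the groups, against 38.6% and 11.3% of all genes. Sirt1, the deacetylase that acts on PGC-1 alpha, stood 0.63 higher in mDrp1HET on the log2 scale (SE 0.27, adjusted p = 0.280), and Nrip1, the corepressor RIP140 of oxidative genes, 0.44 higher (SE 0.26). Ncoa2, a receptor coactivator, had a difference of 0.43 (SE 0.23).

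All 17 genes listed for signalling to Ppargc1a and for its transcription were measured, with a median log2 fold change of 0.014. Mef2d, a factor that binds the Ppargc1a promoter in muscle, stood at 5.89 and 6.0 log2 CPM in Control, at 5.71 in the shared library, and at 4.71 and 5.37 in mDrp1HET (log2 fold change -0.90, SE 0.26, adjusted p = 0.156). Fnip1, a folliculin partner that restrains AMPK and PGC-1 alpha in muscle, had 0.52 (SE 0.20, adjusted p = 0.244). The factor Creb1 had 0.50 (SE 0.22), and Prkaa2, the main catalytic AMPK subunit of muscle, 0.43 (SE 0.20). Without overlap of the groups 8 members lay higher and 3 lower, against 38.6% and 11.3% of all genes.

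Most PPAR targets and most targets of estrogen-related receptors and PGC-1 had fold changes under the all-gene median in the 4-library comparison, again with 0 calls in either direction. Of 24 measured PPAR targets 18 lay under it, and the list's own median log2 fold change was -0.067. The muscle carnitine transferase Cpt1b had a log2 fold change of -0.71 (SE 0.42), the lipid droplet protein Plin2 one of -0.42 (SE 0.24) and the lipase inhibitor Angptl4 one of 0.81 (SE 0.42). Of 15 targets of estrogen-related receptors and PGC-1 13 lay under it, with a list median of -0.18. Among these Mfn2, the outer membrane fusion protein, stood at 8.43 and 8.13 log2 CPM in Control, at 8.03 in the shared library, and at 7.27 and 7.23 in mDrp1HET, which gives -1.03 as log2 fold change (SE 0.21, adjusted p = 0.0747). Citrate synthase, Cs, had -0.42 (SE 0.23), the glucose transporter Slc2a4 0.34 (SE 0.21) and cytochrome c, Cycs, -0.86 (SE 0.73).

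The 12 measured targets of NRF1 and GABP had a median log2 fold change of 0.14, with 7 of them under the all-gene median. Alas1, the first enzyme of heme synthesis, had -0.75 (SE 0.25, adjusted p = 0.206) and the oxidase subunit Cox6c 0.70 (SE 0.25, adjusted p = 0.228). The import receptor Tomm20 had 0.47 (SE 0.29) and the mitochondrial DNA factor Tfam 0.36 (SE 0.26), and the groups overlapped for both. In both genes only mDrp1HET replicate 1 stood above both Control libraries. Relative to all genes the medians of PPAR targets and of targets of estrogen-related receptors and PGC-1 were -0.27 and -0.38. Without Control replicate 3 they were -0.72 and -0.59, without mDrp1HET replicate 1 -0.63 and -0.62, without Control replicate 2 they were 0.0034 and -0.079, and without mDrp1HET replicate 2 they were -0.065 and -0.081. Their place below all genes therefore rests on Control replicate 2 and mDrp1HET replicate 2.

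**Figure D5:**
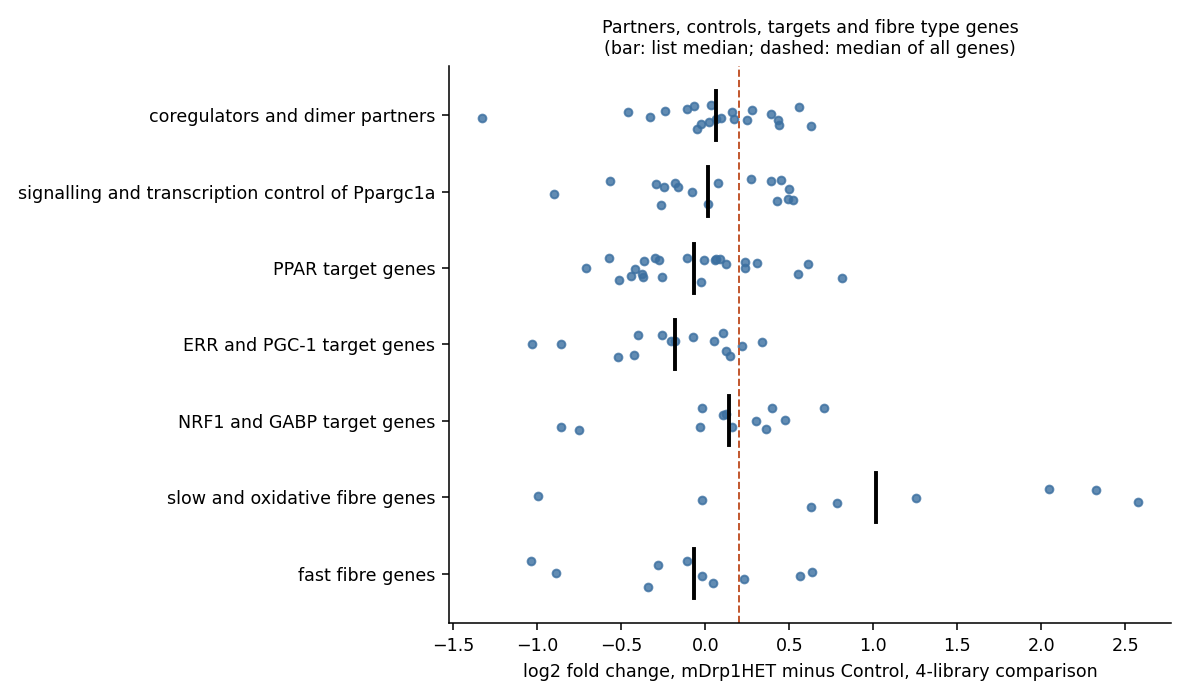
Log2 fold change in the 4-library comparison (x axis, mDrp1HET minus Control) of each measured gene of 7 lists (rows, 1 point per gene, spread vertically for legibility). Black bars are list medians, and the dashed line marks the all-gene median, 0.20. The target lists of PPAR and of estrogen-related receptors and PGC-1 have medians below 0, as do the fast fibre genes, and the slow fibre genes range from -0.996 to 2.58.

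Of the markers of other cell types 0 passed the threshold in either comparison, though some summed levels lay apart between the groups. The 7 fibro-adipogenic progenitor markers summed to 1735 and 1161 CPM in Control, 1289 in the shared library, and 2263 and 2250 in mDrp1HET, and 5 of 7 lay higher without overlap, against 38.6% of all genes. The 6 measured macrophage markers summed to 195 and 136 in Control, 171 in the shared library, and 267 and 242 in mDrp1HET. Endothelial markers summed to 354 and 238 against 309 and 224, and smooth muscle and pericyte markers to 286 and 136 against 228 and 137. Schwann cell markers summed to 48.5 and 25.9 against 49.1 and 43.9, and tendon markers to 313 and 254 against 130 and 267. The part of these cells in the lower values of Ppargc1b and Perm1 was not tested. Adipocyte markers summed to 199 and 75.9 CPM in Control, 316 in the shared library, and 288 and 159 in mDrp1HET. Pparg, the fat cell form of the PPAR family, also named after its values were seen, stood at 2.79 and 1.43 log2 CPM in Control, at 3.10 in the shared library, and at 2.89 and 2.43 in mDrp1HET, so it was highest and lowest in the same libraries as the adipocyte sum.

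The genes whose pattern over the 5 libraries lay nearest that of Ppargc1a, by the distance between values centred on each gene's mean, were Rom1 (0.095 log2), Eid1 (0.095) and Cav2 (0.11), where the distance of Ppargc1a from a flat line was 0.99. For Ppargc1b they were Tll1 (0.17), Klhl30 (0.27) and Mthfd2 (0.27), where that distance was 1.08. These 6 genes were picked from all others by this measure alone. Tll1 and Mthfd2 held only 0.44 and 0.54 log2 CPM in mDrp1HET replicate 2, where counting error is large beside their distances.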

How the data were processed

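Quadriceps RNA libraries (3 Control and 3 mDrp1HET columns, groups from the genotype label) were read from 1 deposited table. The deposited values are log2 CPM per gene, that is log2 counts scaled by the authors to each library's total, and a p-value per gene from the authors was deposited beside them and is given for 2 genes only. FastQC, DESeq2 1.30.0 and the build GRCm38 are named per the submitters' processing notes, while the aligner and counter are not given in the sources used here. Whole reads could be recovered from the step size of each column for 100% of values (tolerance 0.01 reads), with totals from 10394761 to 64728022. The main test was limma 3.58.1 (R 4.3.3, intensity trend, two-sided, Benjamini-Hochberg over 11768 genes, threshold 0.05). Intervals cover the spread between libraries, as estimated by limma from each gene's own spread and from that of other genes. Intervals of widely spread genes are therefore narrower, and those of steady genes wider, than their own libraries would give. Perm1 had an SE of 0.38 at a within-group SD of 0.77, and Nrf1 one of 0.24 at 0.057. The method was run on simulated data with planted changes far larger than those of the regulators and with the widest spreads capped. That run does not show how the method performs on changes and spreads like those of the regulators.

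The members and gene lists were chosen with earlier results of these data known. The genes named are the 9 members, up to 4 genes with the smallest p in each pathway list, the nearest 3 genes to each coactivator and Dnm1l, and others are said to be chosen later. Lengths and GC contents came from GENCODE M21 transcripts with a RefSeq match (98.6% of genes), in place of a RefSeq length table. Of the listed genes Esrrb, Sdhd, Tnnc1, Tnni1, Myl2 and C1qb were not analysed here, and some genes that the rule names are not reported here. Alternatives were other scalings, offsets, filters, variance models, voom on recovered reads and left-out libraries, and GC trend removal (loess, span 0.3) was added after the data were seen. No sample column was left unmapped. Genes with near-identical copies, such as the myosins and Cycs, are uncertain, since the counting of shared reads is not given.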

Additional observations from a re-analysis of the deposited data

How the results depend on the processing

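No paired analysis was possible because the labels give no replicate number that the groups share. No regulator passed the threshold under any alternative run other than the left-out libraries given for Perm1. Ppargc1b and Perm1 kept their direction under all alternatives run in both comparisons (4-library -1.24 to -0.55 and -1.47 to -0.26). Nrf1 also kept its sign (4-library 0.024 to 0.23), but relative to the all-gene median it stood at -0.011 and is given no direction. In the labelled comparison 0 genes passed, between 0 and 2 with 1 column left out, and 22 without both copies of the shared library. In the 4-library comparison 22 passed, 0 with median centring, 1 with quantile normalization, 0 without the intensity trend, 51 with voom, 17 with the GC trend removed and between 77 and 325 with 1 library left out. The cause was not tested.

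Signs turned as follows. Ppara was -0.011 (labelled) and -0.016 (4-library) with median centring, -0.036 and -0.052 with quantile normalization and -0.72 with array weights (labelled). Gabpa was -0.060 and -0.091 with median centring, -0.042 and -0.062 with quantile normalization, and -0.11 and -0.165 with the GC trend removed. Esrrg was -0.016 and -0.018 with quantile normalization, -0.012 and -0.018 with the GC trend removed, and -0.45 with array weights (labelled), which gave Esrra -0.027. Left-out libraries gave ranges of -0.17 to 0.43 (labelled) and -0.21 to 0.81 (4-library) for Ppargc1a, -0.39 to 0.60 and -0.72 to 1.02 for Ppara, -1.07 to 0.031 for Ppard (4-library), -0.11 to 0.28 and -0.18 to 0.55 for Esrra, -0.48 to 0.57 and -0.86 to 1.24 for Esrrg, and -0.092 to 0.17 and -0.090 to 0.24 for Gabpa. The list medians relative to all genes ranged from -0.72 to 0.0034 for PPAR targets and from -0.62 to -0.079 for targets of estrogen-related receptors and PGC-1, and that of slow fibre genes (0.81) was -0.55 without mDrp1HET replicate 1. With the shortest transcript Ppargc1a, Ppard and Nrf1 stood at 4.19, 3.80 and 3.16 log2 CPM per kilobase. A filter at a mean of 3 log2 CPM left no value for Ppargc1b and Ppard. Depth limits Ppargc1b most, with 39 reads in mDrp1HET replicate 2.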

Other observations

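Mb, the oxygen store myoglobin of oxidative fibres, held 11.29 and 8.80 log2 CPM in Control, 9.23 in the shared library, and 11.48 and 8.58 in mDrp1HET, high in the same pair of libraries as Esrrg (named after its values were seen). Cycs held 4.24 log2 CPM in mDrp1HET replicate 2, against 6.41 to 7.54 elsewhere. It has near-identical copies in the genome, and how reads shared with them were counted is not given.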
